A study of Mus musculus with 6 samples.

Results

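Cell adhesion genes were examined in airway smooth muscle cells from mice with an overexpressed beta2-adrenergic receptor. The genes were those whose single symbol in the array's gene annotation names an integrin, cadherin, protocadherin, laminin, claudin, connexin, zonula occludens protein, catenin, intercellular or vascular adhesion molecule, syndecan, or Cd44, Cd9 or Cd151. The rule took 52 genes with 68 probes out of 8734 probes in all, and 51 of the genes had enough values to be fitted, among 6807 fitted rows. The symbols alone chose the genes, and no measured value entered the rule, but it was chosen with earlier results of these data known. The pattern of letters also took 3 genes whose products are not adhesion molecules themselves: Itgb1bp1, a cytoplasmic binding partner of integrins, Ctnnbip1, an inhibitor of beta-catenin, and Ctnnbl1, a nuclear protein of the splicing machinery.

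Transgenic RNA (labelled TG+, from 2AR-OE mice, which overexpress the receptor) and nontransgenic RNA (labelled NTG) competed on each of 6 two-colour arrays. Both came from explant cultures of the trachea at passages 8 to 10, started in 20% serum and described as over 90% smooth muscle cells by actin staining. Each array holds 1 ratio per probe and no separate level for either genotype. Transgenic RNA carried the dye Cy5 on 4 arrays, named 2A, 2B, 1A and 1B; on the other 2, named 2C and 1C, it carried Cy3. The digit in an array's title is called its set here; what digit and letter stand for is not given in the sources used here, and neither are the promoter of the transgene, the strain or the age of the mice. Nothing says that the arrays of a set came from separate cultures, so p-values measure no more than how these arrays vary, and that variation may be technical. The values are log2 ratios, likely transgenic over nontransgenic, and the columns of 2C and 1C were taken as already turned to that direction; the labels state neither. If the ratio runs the other way, every sign below mirrors. The number of arrays limits the precision, and because spot brightness is unknown it cannot be said which of these genes the cells expressed well.

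Array 1C stood apart: its log2 ratios had an SD of 1.04 over all probes, against 0.467 to 0.608 on the other arrays, and 63 of its probes lay at the lowest value of the table.

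Integrins are paired alpha and beta subunits that hold cells to matrix proteins and, inside the cell, bind talin and other adaptors of the actin cytoskeleton. Laminins are three-chained proteins of the basement membrane and are ligands of several integrins. Cadherins join neighbouring cells in the presence of calcium and hang on catenins inside the cell, claudins and zonula occludens proteins build tight junctions, and connexins form the gap junction channels that couple smooth muscle cells. Smooth muscle cells use integrins and cadherins to pass contractile force to the matrix and to each other.

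In transgenic cells 2 integrin subunits and N-cadherin fell, and a laminin chain and E-cadherin rose. Itgb3 fell by 1.00 ± 0.0815 on the log2 scale (2.00-fold lower), Itga6 by 0.76 ± 0.112 (1.70-fold lower) and Cdh2 by 0.46 ± 0.0597 (1.38-fold lower). Lamb2 rose by 0.54 ± 0.0877 (1.45-fold higher) and Cdh1 by 0.32 ± 0.0595 (1.25-fold higher). In such bulk RNA fewer cells of a type and less RNA per cell cannot be told apart. Each error is the standard error from limma (n = 6 arrays unless stated). P-values were adjusted by Benjamini-Hochberg over all 6807 rows, and the threshold was an adjusted p of 0.05. Of the 51 genes 5 passed, which is 9.80% against 7.11% of all rows. Of these 3 were lower (5.88%, against 3.09% of all rows) and 2 higher (3.92%, against 4.03% of all rows). The genes as a whole did not lean to one side: 25 fitted ratios were positive and 26 negative, with a median of -0.006 against 0.002 over all rows. The median size of a ratio was 0.183 for the adhesion genes and 0.173 for all rows.

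**Figure D1:**
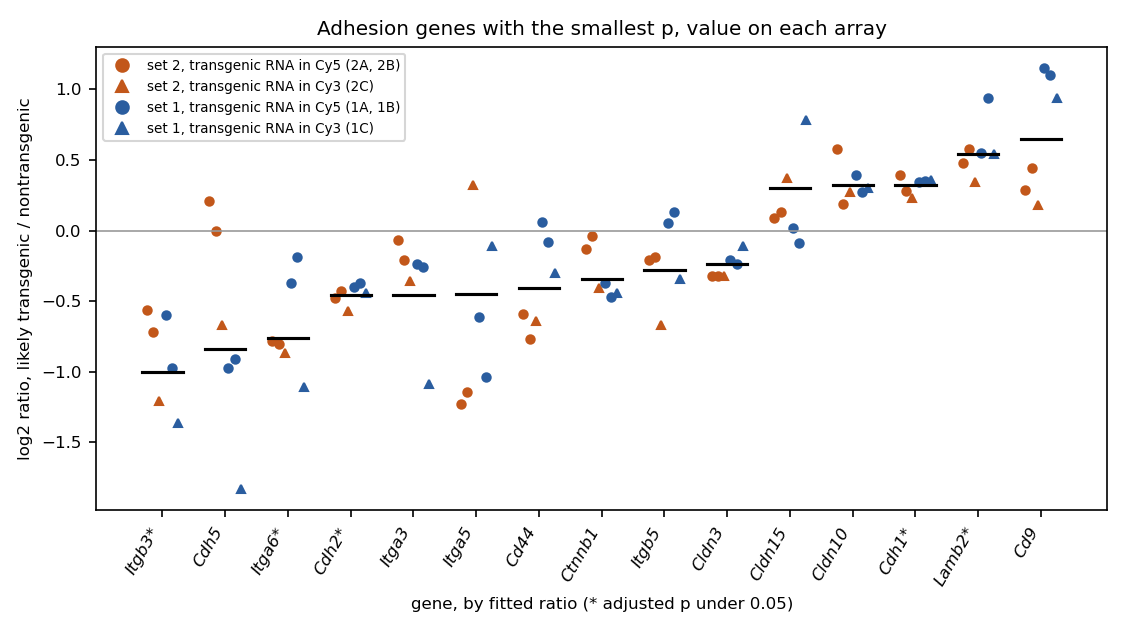
Log2 ratio (vertical axis, likely transgenic over nontransgenic) on each of the 6 arrays for the 15 adhesion genes with the smallest p, ordered by fitted ratio (black bar); colour gives the set and the marker gives the dye of the transgenic RNA. Itgb3, Itga6 and Cdh2 lie below 0 and Lamb2 and Cdh1 above 0 on all 6 arrays, while Itga5 spreads from -1.23 to 0.32 and Cdh5 from -1.83 to 0.21.

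Itgb3 encodes the beta subunit that pairs with the alpha v chain in a receptor for vitronectin and fibronectin. Its ratio was -0.56, -0.72 and -1.21 on arrays 2A, 2B and 2C and -0.60, -0.97 and -1.36 on arrays 1A, 1B and 1C. All 6 values were negative, and the arrays with transgenic RNA in Cy3, which are also those lettered C, lay below the other 4. The adjusted p was 0.00411, and it ran from 0.0149 to 0.0225 with 1 of the 4 arrays with transgenic RNA in Cy5 left out. Without 1C the ratio was -0.96 and without 2C it was -1.04. When the set entered as a random replicate block the adjusted p was 0.0156; of the 51 genes 2 then passed (3.92%), Itgb3 and Cdh2, against 2.89% of all rows. The mean was -0.71 over the 4 arrays with transgenic RNA in Cy5 and -1.29 over the 2 with it in Cy3, a difference of 0.57 ± 0.163 that did not pass the adjusted test (unadjusted p = 0.0124, adjusted p = 0.202).

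Itga6 encodes an alpha subunit of laminin-binding integrins. The values were -0.78, -0.80 and -0.87 on 2A, 2B and 2C and -0.37, -0.19 and -1.11 on 1A, 1B and 1C. The arrays of set 2 lay close together and those of set 1 far apart, and no array reached 0. The adjusted p was 0.0168. The call was lost without 2A (0.0561), without 2B (0.0531) and with the replicate block (0.058). It was also lost when the 4 arrays with transgenic RNA in Cy5 were fitted alone (0.0525) and with array weights from limma (0.0527). Without 1C, which leaves 2C as the only array with transgenic RNA in Cy3, the ratio was -0.70. The ratio was -0.70 to -0.82 whichever array was left out.

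The other alpha subunits gave no call. Itga3, a further laminin receptor subunit, had -0.07, -0.21 and -0.36 on 2A, 2B and 2C and -0.24, -0.26 and -1.09 on 1A, 1B and 1C (fitted -0.46 ± 0.11, adjusted p = 0.0656). It was negative on every array, with array 1C far below the rest. Without 1C the fitted ratio was -0.27. Without 2C, which leaves 1C as the only array with transgenic RNA in Cy3, it was -0.64. Itga5, the alpha subunit of the classical fibronectin receptor, had -1.23, -1.14 and 0.32 on 2A, 2B and 2C and -0.61, -1.04 and -0.11 on 1A, 1B and 1C (fitted -0.45 ± 0.114, adjusted p = 0.0722). Here the dye orientation divided the arrays: the mean was -1.0 with transgenic RNA in Cy5 and 0.10 with it in Cy3, a difference of -1.11 ± 0.228 (unadjusted p = 0.00276, adjusted p = 0.176). Itga5 passed when only the Cy5 orientation was fitted (adjusted p = 0.0145). Its ratio was -0.43 in set 2 alone and -0.56 without 2C, fits that each leave 1 array with transgenic RNA in Cy3.

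Itga7, the laminin-binding subunit of muscle, was at -0.03 ± 0.108, and Itga11, a collagen-binding subunit, at -0.01 ± 0.0642. Itga9, which binds tenascin C among other ligands, was at -0.06 ± 0.0753. Of the subunits known from leukocytes, Itgam was at -0.17 ± 0.164, Itgax at -0.01 ± 0.0768 and Itgae, which binds E-cadherin, at 0.24 ± 0.122. The adjusted p of these 6 genes ran from 0.25 to 0.965. Itga11 was the most narrowly bounded of them, with a 95% interval of -0.17 to 0.14.

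Of the other beta subunits, Itgb5, which also pairs with the alpha v chain, had -0.21, -0.19 and -0.67 on 2A, 2B and 2C and 0.05, 0.13 and -0.34 on 1A, 1B and 1C. Within each dye orientation set 2 lay below set 1, and the fitted ratio was -0.28 ± 0.0869 (adjusted p = 0.11). Itgb2, the beta subunit of leukocyte integrins, was at 0.03 ± 0.141. The adaptor gene Itgb1bp1 was at -0.31 ± 0.149 (adjusted p = 0.23). Over the 12 integrin subunits 10 fitted ratios were negative and 2 positive, beside 3384 negative of all 6807 rows, and the median was -0.112. Of the negative ratios those of Itga11, Itgax, Itga7 and Itga9 lay within 1 standard error of 0. Among the 12 subunits 2 passed (7.11% of all rows did) and 5 had an unadjusted p under 0.05 (27.7% of all rows did).

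Lamb2 encodes the laminin beta chain found in the basement membranes of smooth muscle and of the neuromuscular junction. Its ratio was 0.48, 0.58 and 0.34 on 2A, 2B and 2C and 0.55, 0.94 and 0.54 on 1A, 1B and 1C. Every array was positive, and 1B stood above the others. The adjusted p was 0.022, and the separate probes gave 0.49 ± 0.0834 (adjusted p = 0.0264) and 0.59 ± 0.119 (adjusted p = 0.0419) when tested alone. The call was lost without 1A (0.0591), 2A (0.0611) or 2B (0.074), with the replicate block (0.0672) and with array weights (0.0798). Without 1C, which leaves 2C as the only array with transgenic RNA in Cy3, the ratio was 0.49.

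The receptor raises cyclic AMP, whose transcription factor CREB is known to bind the core letters TGACG of the cyclic AMP response element. Promoter windows from RefSeq on GRCm38.p6 (250 bases before to 50 after a gene's start) were given for 30 of the 51 genes, 39 windows in all, and were read for the core on both strands. It lay in 10 of the 39 windows (25.6%) and in 20.8% of the 32851 windows of all genes. The full element TGACGTCA, which holds the core on both strands, lay in 2 windows (5.13%), those of Cldn6 and Cldn7, and in 1.79% of all windows. The window of Lamb2 (chr9:108479612-108479911, plus strand) is shown because Lamb2 was the only called gene that had one; it is printed 5′ to 3′, and capitals mark the core, read here from the opposite strand just after the gene's start.
Lamb2: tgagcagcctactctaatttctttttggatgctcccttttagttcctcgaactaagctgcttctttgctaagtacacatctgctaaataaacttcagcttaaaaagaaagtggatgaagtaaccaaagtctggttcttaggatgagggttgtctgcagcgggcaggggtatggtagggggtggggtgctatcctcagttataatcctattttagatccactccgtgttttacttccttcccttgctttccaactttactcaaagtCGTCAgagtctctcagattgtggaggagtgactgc
A match describes the letters of this window and says nothing of binding in these cells.

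Of 7 laminin chains 6 had positive ratios, beside 3423 of all 6807 rows, and only Lamb2 passed. Lamc1, the most widely used gamma chain, was at 0.23 ± 0.107, and Lama5 at 0.16 ± 0.0854. Lama2, the alpha chain of muscle basement membrane, was at 0.36 ± 0.184, but its probes disagreed: one gave 0.67 ± 0.301, with 2.52 on array 1C, and the other 0.06 ± 0.0867. Lamc3 was at 0.09 ± 0.115 and Lama4, a chain of blood vessels and muscle, at 0.04 ± 0.153. Lamb1, the alternative to Lamb2 in the trimer, was at -0.09 ± 0.14, from separate probes at -0.29 ± 0.149 and 0.12 ± 0.18. The median of the laminin chains was 0.162.

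**Figure D2:**
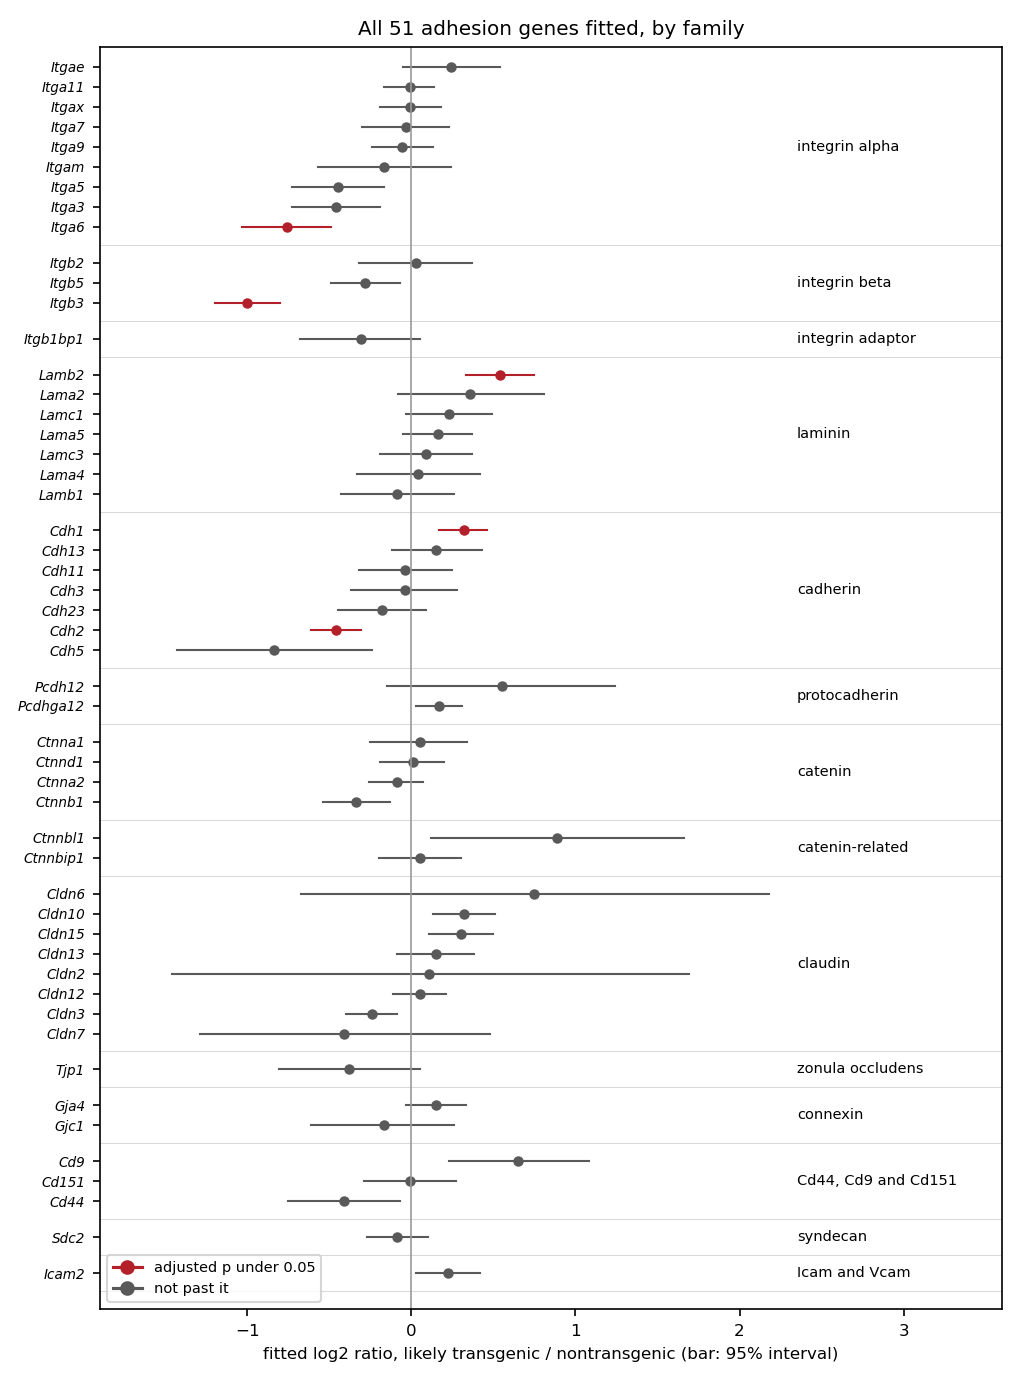
Fitted log2 ratio (horizontal axis, likely transgenic over nontransgenic) with its 95% interval for each of the 51 adhesion genes, grouped by family; genes past the adjusted threshold are red. Integrin subunits lie mostly below 0 (10 of 12, beside 3384 of 6807 rows) and laminin chains mostly above it (6 of 7, beside 3423 of 6807 rows). Many of these intervals span 0, and the widest intervals belong to Cldn2, Cldn6 and Cldn7.

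Cdh2 encodes N-cadherin, the classical cadherin of muscle, nerve and mesenchymal cells. The ratio was -0.48, -0.43 and -0.57 on 2A, 2B and 2C and -0.40, -0.37 and -0.44 on 1A, 1B and 1C. The 6 values lay between -0.57 and -0.37, and those of the sets and of the dye orientations overlapped. The adjusted p was 0.0119, and 0.0374 with the replicate block. One probe gave -0.53 ± 0.0643 (adjusted p = 0.0115) and the other -0.39 ± 0.0862 (adjusted p = 0.0523) when tested alone. Leaving out 2A or 2B put the adjusted p just past the threshold (0.0541 and 0.0527).

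Cdh1 encodes E-cadherin, the cadherin of epithelia. Its ratio was 0.39, 0.28 and 0.23 on 2A, 2B and 2C and 0.34, 0.35 and 0.36 on 1A, 1B and 1C. The spread over the arrays (SD 0.0563) was narrower than that of Cdh2 (SD 0.0702), and the rise was small. The adjusted p was 0.0333, and the call was lost with the replicate block (0.101). It was also lost without any 1 of the 4 arrays with transgenic RNA in Cy5 (0.0849 to 0.117) and with array weights (0.117). Without 1C, which leaves 2C as the only array with transgenic RNA in Cy3, the ratio was 0.29. Of 4 other epithelial genes measured, Krt7, Krt19, Scgb1a1 and Sftpc, limma called 0, against 7.11% of all rows. Among them 0 reached an unadjusted p of 0.05, against 27.7% of all rows. Their ratios ran from -0.46 to 0.19, and their part in the result was not tested.

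The ratio of Cdh5, the cadherin of endothelial cells, was 0.21, 0.00 and -0.67 on 2A, 2B and 2C and -0.97, -0.91 and -1.83 on 1A, 1B and 1C. It was low on 2C and in set 1, and not below 0 on 2A, and the fitted ratio of -0.84 ± 0.242 did not pass (adjusted p = 0.0957). The size rests on 1 of 3 probes, at -2.44 ± 0.576 with the table's lowest value of -6.64 on array 1C; the other probes gave -0.20 ± 0.129 and 0.13 ± 0.369. With values at that lowest level set to missing, Cdh5 was at -0.23 ± 0.247 (adjusted p = 0.558). Of 6 endothelial marker genes limma called 0, against 7.11% of all rows. An unadjusted p of 0.05 was reached by 2, Emcn at -0.68 ± 0.159 and Esam at 0.42 ± 0.118, against 27.7% of all rows.

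Cdh11, the cadherin of mesenchymal cells, was measured by 6 probes and averaged -0.04 ± 0.116. Cdh13, a cadherin anchored to the membrane by a lipid, was at 0.15 ± 0.112, Cdh3, P-cadherin, at -0.04 ± 0.133, and Cdh23, a cadherin of the inner ear's hair cells, at -0.18 ± 0.11. The adjusted p of these 4 ran from 0.319 to 0.857. The protocadherins Pcdh12, known from endothelium, and Pcdhga12, of the gamma cluster, were at 0.55 ± 0.285 and 0.17 ± 0.0585. Pcdh15 had values on 2 arrays only, -3.38 on 2B and 1.28 on 2C, and was not fitted.

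Among catenins, Ctnnb1, beta-catenin, had -0.13, -0.04 and -0.41 on 2A, 2B and 2C and -0.37, -0.47 and -0.44 on 1A, 1B and 1C. All values were negative, but those on 2A and 2B were close to 0, and the fitted ratio was -0.34 ± 0.0834 (adjusted p = 0.0687). Ctnna1, the catenin that links the complex to actin, was at 0.05 ± 0.121, its neural relative Ctnna2 at -0.09 ± 0.0668, and Ctnnd1, the catenin that stabilises cadherins at the membrane, at 0.01 ± 0.0794. The inhibitor Ctnnbip1 was at 0.05 ± 0.103. Ctnnbl1 had a fitted ratio of 0.89 ± 0.316, which array 1C set: it stood at 2.49 there and at 0.16 to 1.01 on the other 5 (adjusted p = 0.141).

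Limma called 0 of the 8 claudins, and 3 reached an unadjusted p of 0.05, as did 27.7% of all rows. Cldn10, a claudin of ion-conducting tight junctions, had 0.58, 0.19 and 0.27 on 2A, 2B and 2C and 0.39, 0.27 and 0.30 on 1A, 1B and 1C (fitted 0.32 ± 0.0767, adjusted p = 0.0638). Cldn3, a claudin of epithelial barriers, had -0.32 on each of 2A, 2B and 2C and -0.21, -0.24 and -0.11 on 1A, 1B and 1C (fitted -0.24 ± 0.0638, adjusted p = 0.0772). Both genes kept their sign on every array. Cldn15, a channel-forming claudin of the gut, had 0.09, 0.13 and 0.37 on 2A, 2B and 2C and 0.02, -0.09 and 0.78 on 1A, 1B and 1C. Its ratio thus came mainly from the arrays with transgenic RNA in Cy3 (fitted 0.30 ± 0.0814, adjusted p = 0.0804). Without 2C, which leaves 1C as the only such array, it was 0.41.

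The remaining claudins scattered widely or lay near 0. Cldn6 was at 0.75 ± 0.582, with 3.73 on array 1A and -0.17 to 0.91 elsewhere. Cldn7 was at -0.41 ± 0.361, with -2.21 on array 2B and -0.52 to 0.41 elsewhere. Cldn2 had values on 5 arrays, from -2.01 to 1.12 (0.11 ± 0.616), and Cldn12 was at 0.05 ± 0.064. Cldn13 averaged 0.15 ± 0.0969 from values of opposite sign in the dye orientations. Tjp1, the tight junction scaffold, was at -0.38 ± 0.175, negative on all 6 arrays with -1.38 on 1B and -0.34 to -0.11 elsewhere. The connexins Gja4, known from blood vessels, and Gjc1, known from smooth muscle and heart, were at 0.15 ± 0.0744 and -0.17 ± 0.178.

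Cd9, a tetraspanin that binds integrins, had 0.29, 0.44 and 0.18 on 2A, 2B and 2C and 1.15, 1.10 and 0.94 on 1A, 1B and 1C. Every value was positive and the sets did not overlap, so the mean of 0.65 ± 0.174 stood between a lower and a higher group of arrays (adjusted p = 0.0802). The ratio was 1.03 in set 1 alone and 0.84 without 2C, fits in which 1C is the only array with transgenic RNA in Cy3. Cd44, the hyaluronan receptor, had -0.59, -0.77 and -0.64 on 2A, 2B and 2C and 0.06, -0.08 and -0.30 on 1A, 1B and 1C. Set 2 lay wholly below set 1, and the fitted ratio was -0.41 ± 0.14 (adjusted p = 0.134), or -0.66 in set 2 alone. Cd151, a tetraspanin partner of laminin-binding integrins, was at -0.01 ± 0.116, Sdc2, a heparan sulphate proteoglycan of the cell surface, at -0.09 ± 0.0747, and Icam2, a ligand of leukocyte integrins, at 0.22 ± 0.0793 (adjusted p = 0.139). Of 7 leukocyte marker genes limma called 0, against 7.11% of all rows, and the median was 0.061. An unadjusted p of 0.05 was reached by 3 of them, against 27.7% of all rows. These were Tyrobp at 0.50 ± 0.147, Adgre1 at -0.19 ± 0.0619 and Cd14 at -0.22 ± 0.0869.

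The sets were compared to show which ratios differed by the digit in the title. The ratio in set 2 minus that in set 1 had an unadjusted p under 0.05 for 16 of 51 genes (31.4%), against 23.7% of all rows. By limma 0 of 51 passed after adjustment, as did 0 of 6807 rows (0%). The ratio was lower in set 2 for 11 of the 16 genes and higher for 5. Cd9 differed by -0.76 ± 0.0851, with a mean of 0.30 in set 2 and 1.06 in set 1 (adjusted p = 0.0716). Cdh5 differed by 1.08 ± 0.0999, with -0.15 in set 2 and -1.24 in set 1 (adjusted p = 0.0716). Its separate probes gave 0.21, 2.00 and 1.05, and the probe at 2.00 holds the lowest value of the table on 1C. With that value set to missing, an alternative added after seeing the data, the difference was 0.28 ± 0.51 (adjusted p = 0.766). Cdh5 was then at 0.57 on 1C from the other probes only. On 2C its -0.67 still held that probe, at -2.34, so these arrays are not compared on the same probes. Arrays without a lowest value also differed, at -0.97 and -0.91 on 1A and 1B against 0.21 and 0.00 on 2A and 2B. Pcdh12 had -0.33, -0.41 and 0.18 on 2A, 2B and 2C and 1.09, 0.45 and 1.61 on 1A, 1B and 1C, a difference of -1.24 ± 0.199 (adjusted p = 0.0724).

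Cdh11 gave the best-covered case. Its mean over the probes was 0.30, 0.22 and 0.12 on 2A, 2B and 2C and -0.19, -0.25 and -0.31 on 1A, 1B and 1C, so the fitted average near 0 hid opposite signs in the sets. Of its 6 separate probes 5 were positive on all arrays of set 2 and negative on all of set 1, and the difference was 0.16 to 0.88 at single probes (0.47 ± 0.0812 on average, unadjusted p = 0.00296, adjusted p = 0.0746). Ctnna1 had -0.10, -0.13 and -0.28 on 2A, 2B and 2C and 0.47, 0.26 and 0.21 on 1A, 1B and 1C. Cd151 had -0.24, -0.14 and -0.29 on 2A, 2B and 2C and 0.35, 0.19 and 0.17 on 1A, 1B and 1C. Opposite signs on all arrays of the sets were seen in 6 of 51 genes (11.8%), against 7.07% of all rows. Cdh13 differed by -0.45 ± 0.0793, but its 3 probes gave -1.07, -0.31 and 0.03.

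**Figure D3:**
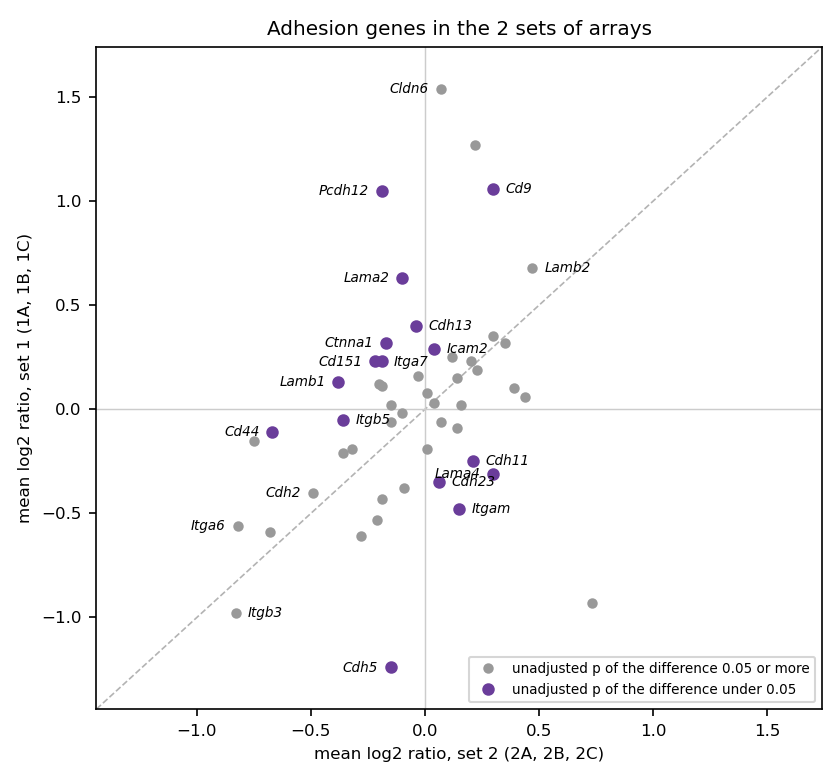
Mean log2 ratio of each adhesion gene in set 2 (horizontal axis, 3 arrays) against set 1 (vertical axis, 3 arrays); the dashed line marks equal values and purple marks an unadjusted p of the difference under 0.05. Itgb3 and Cdh2 lie near the line, while Cd9, Pcdh12 and Lama2 lie above it and Cdh11, Lama4 and Itgam below it on the other side of 0.

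**Figure D4:**
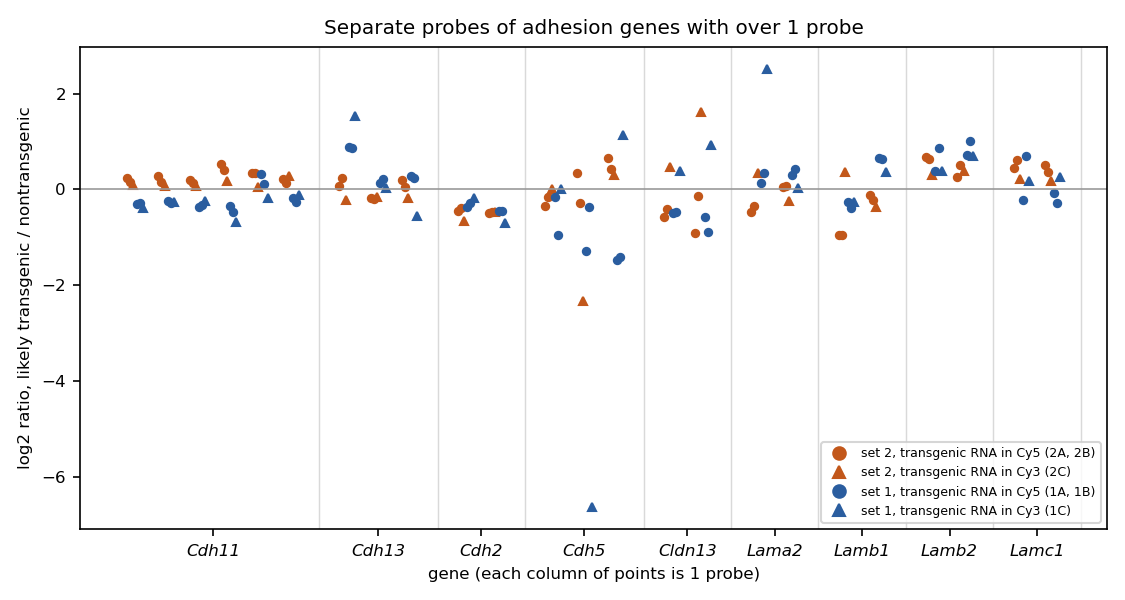
Log2 ratio (vertical axis) on each array at the separate probes of the 9 adhesion genes with values from more than 1 probe; each column of points is a probe, with colour for the set and marker for the dye. The probes of Cdh2 and Lamb2 keep 1 sign, 5 of 6 Cdh11 probes separate the sets, and 1 Cdh5 probe holds the value of -6.64.

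The dye orientations were compared to show which ratios changed when the dyes were exchanged. The difference had an unadjusted p under 0.05 for 6 of 51 genes (11.8%), against 18.2% of all rows, and by limma 0 of the 51 passed, against 0.0147% of all rows. Cldn13, a claudin of rodents, had -0.74 and -0.27 on 2A and 2B and -0.54 and -0.67 on 1A and 1B, where transgenic RNA was in Cy5, but 1.04 on 2C and 0.65 on 1C, where it was in Cy3. The difference was -1.40 ± 0.194 (unadjusted p = 0.000345, adjusted p = 0.132), and both of its probes divided the arrays in the same way. Itga5, Itgb3, Cldn15, Itgax and Itgb5 were the others. Opposite signs on all arrays of the orientations were seen in 3 genes, Cldn13, Cldn12 and Itgax (5.88%, against 10.3% of all rows). The same test answers what would follow if the columns of 2C and 1C had not been turned. With their signs exchanged, 0 adhesion genes passed, against 0.0147% of all rows. The ratio of Itgb3 then became 0.29 (adjusted p = 0.202 by limma).

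Across the 51 genes the arrays of opposite dye orientation correlated with r of 0.13 to 0.58 over 8 pairs of arrays, against 0.03 to 0.17 over all rows. Within a set the range for such pairs was 0.28 to 0.58 over 4 pairs. Arrays of 1 dye orientation correlated with r of 0.40 to 0.72 within a set and 0.10 to 0.50 between sets, against 0.55 to 0.67 and 0.31 to 0.42 over all rows. Over all rows the pairs of opposite orientation thus lay wholly below those of the same orientation, while over the 51 genes the ranges overlapped. These are descriptions across genes, which are not independent replicates and share the same cultures. The same sign on all 6 arrays was seen in 13 of the 51 genes (25.5%), 6 higher and 7 lower, against 19.6% of all rows.

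**Figure D5:**
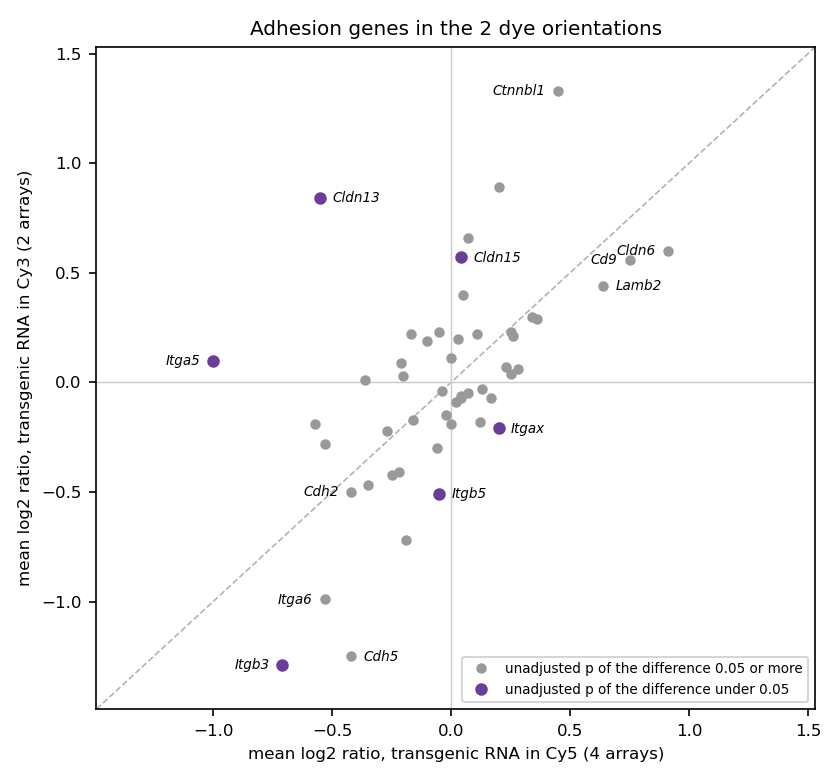
Mean log2 ratio of each adhesion gene over the 4 arrays with transgenic RNA in Cy5 (horizontal axis) against the 2 arrays with it in Cy3 (vertical axis); the dashed line marks equal values and purple marks an unadjusted p of the difference under 0.05. Cldn13 and Itga5 lie farthest from the line, and Itgb3 lies below 0 in both orientations.

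Genes of the same structures that the symbols did not take were read from 5 lists, chosen with earlier results of these data known. Of 69 such genes fitted, 7 rose and 9 fell (23.2%), and the median was -0.005. Because of how the lists were chosen, neither that share, beside 7.11% of all rows, nor the directions are independent evidence. Inside the cell, Pxn, the focal adhesion scaffold paxillin, fell by 0.77 ± 0.093 and Tln1, talin, which binds integrin tails, fell by 0.45 ± 0.0662, while Vcl, vinculin, which binds talin, rose by 1.15 ± 0.144. These 3 were the calls among 20 adaptor genes, whose median was 0.018. Among 12 matrix ligands and laminin-binding proteins, Agrn, agrin, a basement membrane proteoglycan, fell by 0.79 ± 0.0884, beside Fn1 and Col3a1, which fell, and Tnc and Thbs2, which rose (median 0.005).

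Among 14 other junction genes 2 rose and 0 fell, with a median of 0.099. Cgn, cingulin, a tight junction protein, rose by 0.69 ± 0.0924 and Pvr, a nectin-like receptor, by 0.53 ± 0.061. Among 12 tetraspanins Tspan13 rose by 0.38 ± 0.0609 (median 0.117). Of 11 other surface adhesion molecules, Gpc4, a glypican, fell by 0.67 ± 0.0855, Mcam by 0.57 ± 0.0752, Cadm4 by 0.55 ± 0.0847 and L1cam by 0.45 ± 0.073, and Thy1 rose by 2.73 ± 0.207; the median was -0.371. All 16 called genes of these lists had 1 sign on all 6 arrays, and with the replicate block Tln1, Tspan13, Cadm4 and L1cam lost the call, at adjusted p of 0.0533 to 0.0681.

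Markers of the cell types that a tracheal explant can hold were read beside these results. Their lists too were chosen with earlier results of these data known. Neither their calls, beside 7.11% of all rows, nor their medians are therefore independent evidence. Thy1 is counted here and among the surface adhesion molecules above. Of 4 smooth muscle genes Cnn1 rose (0.59 ± 0.105; median -0.088), a call lost with the replicate block (adjusted p = 0.0602). Of 6 fibroblast genes Thy1, Ly6c1 and Mfap5 rose, with a median of 1.241, and of 5 cartilage genes Col11a1 fell (-1.10 ± 0.0912; median -0.246). Uchl1 fell of 3 neural genes and Mb rose of 3 striated muscle genes, and with the replicate block both calls were lost (adjusted p = 0.109 for Uchl1 and 0.122 for Mb). The part of these cells in the adhesion ratios was not tested.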

How the data were processed

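The values deposited for the 6 arrays are log2 ratios, 1 for each probe. Per the labels' protocols, cDNA in Cy3 and Cy5 was hybridised together on printed slides; of scanner, background correction and normalization nothing was stated. As deposited, the log2 values were already centred (array medians from -0.0012 to 0.0007) and end at a lowest value of -6.6439, the log2 of 0.01, which 0 to 63 probes of an array reached. Array 1C scattered most (SD 1.04, against 0.467 to 0.608 on the others).

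Of the 8734 probes 7540 had 1 gene symbol, 14 several and 1180 none; all 52 adhesion genes matched the GRCm38.p6 gene table by Entrez ID. Probes of a symbol were averaged on each array, and a row was kept with 4 or more arrays measured, some in each dye orientation. limma 3.58.1 (R 4.3.3) fitted a transgenic and a dye coefficient, and the set difference as a further term, over all rows. The fit was tested on simulated data with independent errors between arrays and no set effect. That test therefore does not cover arrays of a set that vary together. Python 3.11.15, pandas 2.3.3 and matplotlib 3.10.9 did the rest. The genes and lists were chosen with earlier results of these data known. Per-array values are given for the genes past the threshold and the 10 next by p. Alternatives covered the dye term, lowest values, set, orientation, probes, scaling, variance model, weights, missing values and arrays left out.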

Additional observations from a re-analysis of the deposited data

Results flagged for a closer look

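For 7 of 51 adhesion genes 1 array lay far from the other 5 by Dixon's test (13.7%, against 15.3% of all rows; chance gives it in about 1 group in 20), so the share was near that of the whole table. Array 1C was that array for Ctnnbl1 (2.49, others 0.16 to 1.01), Itga3 (-1.09, others -0.36 to -0.07) and Itgb2 (0.72, others -0.29 to -0.01). Array 1A was it for Cldn6 (3.73, others -0.17 to 0.91), array 1B for Tjp1 (-1.38, others -0.34 to -0.11), array 2B for Cldn7 (-2.21, others -0.52 to 0.41) and array 2C for Gjc1 (0.64, others -0.68 to -0.22). None of these 7 genes passed the threshold.

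For 6 genes every array of set 2 had the opposite sign to every array of set 1, and the limma test of the difference did not pass after adjustment for any of them. The difference of set 2 minus set 1 was -0.46 for Cd151 (adjusted p = 0.08), 0.47 for Cdh11 (0.0746), 0.41 for Cdh23 (0.123), -0.48 for Ctnna1 (0.0789), 0.63 for Itgam (0.134) and 0.60 for Lama4 (0.103). The labels do not say what the sets are.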

How the results depend on the processing

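The results above count 2 adhesion genes higher and 3 lower, and 7 listed neighbours higher and 9 lower. With 1 array left out the counts ran from 0 to 6 higher and 1 to 7 lower for the adhesion genes, and from 5 to 14 higher and 4 to 15 lower for the neighbours. The highest counts came without array 2C, where 24.9% of all rows passed and Cdh5, Ctnnbl1, Gjc1, Lama2, Cd9, Cldn15, Itga3 and Itga5 joined the calls; the lowest neighbour counts came without 1C. Itgb3 passed under each array left out, and of the 5 called genes it alone passed without 2A or without 2B. Without a dye term 4 adhesion genes were higher. With set entered as a random replicate block (correlation 0.295) 0 were higher and 2 lower, Itgb3 and Cdh2, while 2.89% of all rows passed. In set 2 alone, which leaves 2C as the only array with transgenic RNA in Cy3, the called genes kept their signs. Itgb3 was at -0.93, Itga6 at -0.83, Cdh2 at -0.51, Lamb2 at 0.44 and Cdh1 at 0.28. When the 4 arrays of the Cy5 orientation were fitted alone, 5 adhesion genes were lower, and 11 neighbours were higher, while 15.4% of all rows passed. With array weights 0 adhesion genes and 4 neighbours were higher, while 2.34% of all rows passed. With the sign of 1C and 2C turned 0 adhesion genes and 0 neighbours passed in either direction, against 0.0147% of all rows. Of 15 ratios 9 then reversed: Itgb3 to 0.29, Cdh2 to 0.04, Itga6 to 0.23, Itga3 to 0.26 and Ctnnb1 to 0.09. The others that reversed were Cldn15 to -0.27, Cdh5 to 0.42, Itgb5 to 0.23 and Cd44 to 0.06. These settings were planned. The set difference with the lowest values set to missing was added after seeing the data and gave 15 genes with an unadjusted p under 0.05 in place of 16. For shifts other than the turned sign the cause was not tested. No sign of the 15 ratios given array by array for the called genes and the 10 next by p changed under the other 19 settings. Setting the lowest values to missing, taking the probe median, testing probes singly, re-centring, robust variance and complete rows each kept the same 5 calls, and scaling the arrays added Itga3. In 6 arrays the precision is limited by their number, and signal over background is unknown.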
